A study of Mus musculus with 15 samples.

Results

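The gene expression of ileal organoids treated with the mouse-like bile acid pool M90 was compared with that of organoids treated with M10. The comparison took the 3 libraries labelled M90 (a, b and c) and the 3 labelled M10 (a, b and c), 6 of the 15 libraries of the series, by those labels alone. It covered 13159 expressed genes, those past the filter on low counts, of 23420 gene symbols counted. The organoids were primary epithelial cultures grown from the ileum of C57BL/6 mice, taken at passage 2, split on day 10 and treated on day 14. Each group spent 24 h in DMEM with 0.2% BSA. M10 and M90 organoids received mouse-like pools in which 10% or 90% of the bile acids, respectively, carried the 12α-hydroxyl group. The 3 vehicle libraries, kept in the same medium without a pool, serve as background, and the human-like pools H10 and H90 (3 libraries each, with the same shares) enter 1 comparison. The bile acids that made up each pool and their doses are not given in the sources used here, so every difference lies between whole mixtures.

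Bile acids are made from cholesterol in the liver, and the enzyme Cyp8b1 adds the 12α-hydroxyl group that separates cholic acid and its products from chenodeoxycholic and muricholic acids. Ileal enterocytes take bile acids up, bind them in the cytosol, export them to blood and sense them through the nuclear receptor FXR. Some bile acids also activate other receptors, among them the vitamin D receptor and PXR. In the crypt-like buds of organoids, Wnt-driven stem and progenitor cells divide, and their progeny differentiate into absorptive and secretory cells.

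Depth was alike in both groups, with 21585731 to 28989526 counts per M10 library and 20589358 to 23756333 per M90 library. Epithelial and ileal identity of the 6 libraries was plain, with 1466 to 1849 CPM (counts scaled to a common library total) of Epcam and 6341 to 10371 CPM of Fabp6 on plain library totals. Of 12 tested markers of mesenchymal, endothelial, muscle and immune cells none was called, and their summed level, list members below the filter included, was 27.6 to 30.2 CPM in M10 and 33.9 to 38.3 in M90. Library M10 c stood apart on the second principal component of the 6 libraries (-39.0, against 14.0 and 24.8 for M10 a and b), and the first component, with 55.3% of the variance, separated M10 from M90. The spread between libraries, as a biological coefficient of variation, was 0.121 in M10 and 0.0697 in M90. M10 libraries also held fewer genes at exactly 1 count (213 to 246, against 466 to 603 in M90). Of the human-like pools it was H90 that held fewer (221 to 297, against 450 to 570 in H10). What part these library features have in the results was not tested. The labels do not state that replicates are different mice or wells, so p-values measure only the spread between these samples, which may be technical.

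M90 and M10 organoids, with a 90% and a 10% share, differed in the level of 5428 genes, 41.2% of the 13159 tested (edgeR quasi-likelihood test, Benjamini-Hochberg adjusted p under 0.05). Of these, 2799 (21.3% of tested genes) were higher in M90 and 2629 (20.0%) were lower. These 2 shares are the background for the counts of each list below. The lists were chosen with earlier results of these data known, so their counts are descriptions and no test of enrichment. Most differences were small, with a median of 1.42-fold among the higher genes and 1.32-fold among the lower ones. Differences of at least 2-fold were found for 809 genes (6.15%), of which 556 were higher (4.23%) and 253 lower (1.92%), and of at least 4-fold for 225 and 37. M10 and M90 ranges did not overlap for 6608 genes (50.2%), called or not. Among the called higher genes, 28 had no count in any M10 library, whereas no called lower gene was without a count in M90. Over all tested genes, called or not, 43 had counts in M90 alone and 1 in M10 alone. M10 libraries held more symbols at 0 in general (9315 to 9719, against 8517 to 8652 in M90). The part of this in the calls was not tested. The split depends on the scaling. With upper-quartile factors 65.4% of the calls were higher in M90, and with library size alone 69.7%, in place of 51.6%. The median log2 difference of all genes was 0.037 with TMM factors and 0.12 and 0.15 with these scalings.

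**Figure D1:**
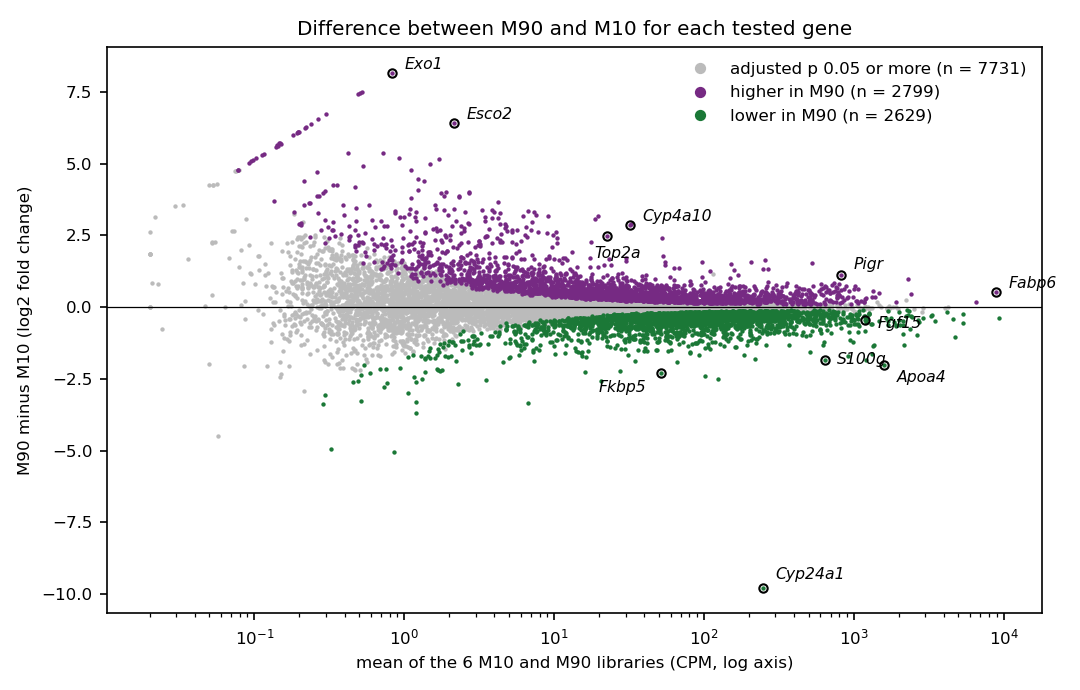
Log2 difference between M90 and M10 for the 13159 tested genes against their mean level in the 6 libraries (CPM, log axis; means below 0.02 are drawn at 0.02). Called genes are purple (2799 higher in M90) or green (2629 lower), the others grey, and the straight line of points at the upper left is formed by genes with no count in M10, whose fitted differences depend on the prior count.

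Many of the largest differences lay in genes of cell division. The 15 largest were taken in each direction among called genes with at least 2 CPM on average and ranges that did not overlap. Of the higher ones, Bub1, Ndc80, Pbk, Cenpf, Kif2c, Ckap2l, Knstrn, Plk1 and Racgap1 act in mitosis, Esco2 in sister chromatid cohesion, Chtf18 and Neil3 in replication and repair, and Ccnf in the cell cycle. Sapcd2 and Ankle1 complete them. Bub1, a kinase of the spindle checkpoint, had 0.153, 0.214 and 0.611 CPM in M10 and 5.22, 6.43 and 3.51 CPM in M90 (log2 4.02, SE 0.32, edgeR adjusted p = 3.10e-12). Plk1, the mitotic polo-like kinase, had 1.49, 2.31 and 0.509 CPM in M10 and 12.7, 14.7 and 13.9 CPM in M90 (log2 3.21, edgeR adjusted p = 1.40e-13). In both genes all M90 libraries lay above all M10 libraries, and the vehicle libraries lay higher still (37.0, 32.4 and 31.4 CPM for Bub1 and 79.2, 79.4 and 88.6 CPM for Plk1). Esco2 was counted 3 times over the 3 M10 libraries and 281 times in M90, a ratio of 97.7 per depth (95% counting interval 33.1 to 477).

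Cyp24a1 headed the lower genes by a wide margin. The other 14 were Gml, Psca, Fosb, Clca6, Pmp22, Fkbp5, Prrg4, Akp3, Apoa4, Calcb, Tubb2a, Tubb2b, Rrad and Klrg2, with log2 differences from -2.66 (Gml) to -1.86 (Rrad, with -1.86 for Klrg2). The call of Rrad ended without M10 a, at an edgeR adjusted p of 0.0845. Clca6, a calcium-activated chloride channel regulator of villus enterocytes, had 228, 233 and 173 CPM in M10 and 38.0, 35.6 and 39.1 CPM in M90 (log2 -2.49, SE 0.12, edgeR adjusted p = 4.47e-12). Psca, a small GPI-anchored surface protein, had 37.4, 40.0 and 28.7 CPM in M10 and 7.48, 5.52 and 4.75 CPM in M90 (log2 -2.58, edgeR adjusted p = 6.75e-14). Tubb2a, a β-tubulin, had 113, 97.3 and 101 CPM in M10 and 28.1, 28.7 and 26.7 CPM in M90 (log2 -1.90, edgeR adjusted p = 4.49e-19), and Fkbp5, a chaperone partner induced by glucocorticoids, had 78.9, 87.8 and 91.0 CPM in M10 and 14.5, 16.7 and 21.5 CPM in M90 (log2 -2.28, edgeR adjusted p = 5.33e-18). M10 was the higher group in every library for these 4 genes, and M90 lay nearer than M10 to the vehicle levels, which were 52.1, 61.0 and 53.3 CPM, 3.20, 3.86 and 3.53 CPM, 11.9, 12.0 and 12.7 CPM and 19.1, 17.2 and 22.0 CPM, respectively.

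Genes of cell division were higher with M90. Of 50 tested genes of the proliferation list, 47 were called higher and 0 lower, where 21.3% of all tested genes were called higher, and the median log2 difference was 2.26 (all genes 0.037). Top2a, the topoisomerase that untangles replicated DNA (chr11:98992943-99024189 on GRCm38), had 6.36, 6.79 and 7.33 CPM in M10 and 38.5, 37.9 and 38.9 CPM in M90, 5.65-fold higher in M90 (log2 2.498, SE 0.10, edgeR adjusted p = 4.29e-21). Mki67, the Ki-67 antigen of cycling cells, had 9.61, 4.53 and 9.37 CPM in M10 and 50.1, 61.4 and 61.6 CPM in M90 (7.38-fold, log2 2.88, edgeR adjusted p = 2.51e-07). Aurka, a centrosomal mitotic kinase, had 1.15, 1.03 and 1.58 CPM in M10 and 12.0, 10.0 and 11.2 CPM in M90 (8.95-fold, log2 3.16, edgeR adjusted p = 1.05e-17). Each M90 library exceeded each M10 library for these 3 genes by several fold. Ube2c and Cdc20, the ubiquitin-conjugating enzyme and the activator of the anaphase-promoting complex, had 6.55, 4.78 and 6.72 CPM in M10 and 30.8, 29.3 and 27.2 CPM in M90, and 2.95, 3.25 and 2.44 CPM in M10 and 16.9, 17.7 and 15.7 CPM in M90, respectively (4.84-fold and 5.77-fold, edgeR adjusted p = 1.06e-17 and 2.08e-17). E2f8, a repressor that closes S phase, had 1.72, 1.45 and 1.02 CPM in M10 and 9.64, 9.60 and 8.17 CPM in M90 (6.39-fold, log2 2.68, edgeR adjusted p = 1.62e-15). The other 3 members did not pass the test. Pcna, the sliding clamp of DNA replication, had 86.0, 82.6 and 84.7 CPM in M10 and 81.7, 80.7 and 78.6 CPM in M90 (95% interval -0.19 to 0.050 on the log2 scale). Cdt1, a replication licensing factor, had 10.5, 10.5 and 9.42 CPM in M10 and 11.3, 10.2 and 9.75 CPM in M90 (95% interval -0.24 to 0.31), and Ccne2, cyclin E2, had 1.26, 2.26 and 0.866 CPM in M10 and 1.81, 1.61 and 2.05 CPM in M90 (95% interval -0.30 to 0.91). The ranges of Cdt1 and Ccne2 overlapped between the groups, and those of Pcna lay next to each other. In bulk RNA fewer cells of a type and less RNA per cell cannot be told apart, so these values do not say how many cells were cycling.

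Both pools lay below vehicle for this list, M10 further. Top2a had 259, 243 and 253 CPM in vehicle, Mki67 292, 296 and 280.3 CPM and Aurka 50.5, 48.6 and 58.0 CPM. The median log2 difference from vehicle over the 50 genes was -4.45 in M10 and -2.44 in M90. These comparisons use the same 3 vehicle libraries. Vehicle also differs from both pools in transcripts such as Mup20 (23.4 to 27.4 CPM in vehicle, 0.417 to 0.583 CPM in the 6 M10 and M90 libraries) and Col1a1 (0 to 0.0737 against 3.74 to 7.66 CPM), so treatment and library set cannot be told apart against vehicle. M10 and M90 libraries do not differ in that way. The library sets are read from such transcripts alone, as the labels give no batch.

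Promoters of many mitotic genes are known to combine CCAAT boxes, bound by NF-Y, with a cell cycle homology region, TTTGAA, bound by the MuvB complex. The promoter windows of the 6 proliferation genes with the smallest p follow, because these members differed most clearly and moved together. Each runs from 250 bases before to 50 bases after a RefSeq transcription start (GRCm38.p6), is written 5′ to 3′ on the gene's strand, and shows in capitals each TTTGAA and each CCAAT on either strand (TTCAAA and ATTGG are the same motifs on the other strand).
Top2a (chr11:99024140-99024439, minus strand): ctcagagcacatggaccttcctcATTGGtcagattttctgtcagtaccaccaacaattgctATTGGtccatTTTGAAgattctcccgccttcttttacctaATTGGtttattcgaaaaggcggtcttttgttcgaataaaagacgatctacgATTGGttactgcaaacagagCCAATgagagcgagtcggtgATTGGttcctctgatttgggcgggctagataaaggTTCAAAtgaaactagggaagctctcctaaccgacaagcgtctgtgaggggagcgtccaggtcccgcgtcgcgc
Aurka (chr2:172370521-172370820, minus strand): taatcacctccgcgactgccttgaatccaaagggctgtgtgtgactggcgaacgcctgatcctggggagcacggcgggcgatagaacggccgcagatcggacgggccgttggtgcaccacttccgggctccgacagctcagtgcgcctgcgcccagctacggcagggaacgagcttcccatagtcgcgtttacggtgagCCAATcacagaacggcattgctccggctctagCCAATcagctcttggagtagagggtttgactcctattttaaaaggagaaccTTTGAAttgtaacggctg
Ube2c (chr2:164769679-164769978, plus strand): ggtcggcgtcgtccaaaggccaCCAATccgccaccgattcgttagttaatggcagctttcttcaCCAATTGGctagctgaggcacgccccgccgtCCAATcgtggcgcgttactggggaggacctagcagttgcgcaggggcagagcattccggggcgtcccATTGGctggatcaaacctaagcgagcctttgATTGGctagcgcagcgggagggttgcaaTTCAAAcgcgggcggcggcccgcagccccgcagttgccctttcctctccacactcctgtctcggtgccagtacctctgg
Cdc20 (chr4:118437294-118437593, minus strand): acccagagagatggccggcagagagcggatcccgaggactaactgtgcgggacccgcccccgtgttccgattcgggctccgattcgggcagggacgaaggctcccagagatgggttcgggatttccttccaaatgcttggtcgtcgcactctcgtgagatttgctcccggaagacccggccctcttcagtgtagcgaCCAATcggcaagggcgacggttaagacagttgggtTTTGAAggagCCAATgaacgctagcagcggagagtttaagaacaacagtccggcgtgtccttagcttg
Cenpf (chr1:189688037-189688336, minus strand): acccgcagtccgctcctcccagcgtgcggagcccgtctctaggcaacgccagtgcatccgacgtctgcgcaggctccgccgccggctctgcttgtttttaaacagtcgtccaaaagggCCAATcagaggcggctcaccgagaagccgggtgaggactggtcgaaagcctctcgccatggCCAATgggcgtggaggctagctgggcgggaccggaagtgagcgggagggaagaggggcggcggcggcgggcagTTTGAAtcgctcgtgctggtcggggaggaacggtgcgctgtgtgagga
E2f8 (chr7:48881547-48881846, minus strand): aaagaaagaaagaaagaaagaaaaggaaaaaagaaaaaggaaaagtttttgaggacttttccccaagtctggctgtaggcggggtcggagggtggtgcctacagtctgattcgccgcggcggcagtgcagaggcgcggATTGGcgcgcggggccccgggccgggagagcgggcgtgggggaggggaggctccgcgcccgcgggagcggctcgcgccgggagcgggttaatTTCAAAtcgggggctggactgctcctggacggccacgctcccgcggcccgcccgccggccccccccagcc
All 6 windows held both motifs, and among 27025 genes with such windows 20.2% held TTTGAA, 41.1% CCAAT and 7.97% both. Among the 9799 tested genes with windows these shares were 14.2%, 43.1% and 5.85%. The 6 genes were picked by their p, so no share of the list is read from them. Top2a and Ube2c held 6 CCAAT matches each, with an overlapping pair in Ube2c, while E2f8 held 1. A match is a string of letters and not a shown binding site. Many genes of the list did not hold both: 39 of its 50 genes (78.0%) had a window, and 15 of these 39 (38.5%) held both. That share is not read against all genes, because at least 80% of the list was required to have a window.

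Stem cell and Wnt genes held members of both directions. Of 29 tested genes 9 were higher and 5 lower in M90, where 21.3% of all tested genes were higher and 20.0% lower, with a median log2 difference of 0.29 (12 and 2 with library size alone). Axin2, a direct Wnt target and feedback inhibitor, had 2.26, 2.52 and 1.78 CPM in M10 and 7.13, 7.34 and 7.70 CPM in M90, 3.35-fold higher (log2 1.74, SE 0.17, edgeR adjusted p = 5.13e-11). Ccnd1, cyclin D1 and also a Wnt target, had 5.55, 6.49 and 5.60 CPM in M10 and 19.3, 17.1 and 18.6 CPM in M90 (3.11-fold, log2 1.64, edgeR adjusted p = 1.50e-14), and its partner Cdk4 had 45.2, 45.1 and 46.8 CPM in M10 and 68.5, 72.3 and 74.7 CPM in M90 (1.57-fold, log2 0.65, edgeR adjusted p = 6.00e-11). Ephb2, the receptor that positions crypt cells, was higher as well (1.47-fold, log2 0.55, edgeR adjusted p = 1.02e-05), and so was Hopx (1.55-fold, log2 0.63, edgeR adjusted p = 1.97e-06). The vehicle libraries were the highest for Axin2, Ccnd1 and Cdk4 (49.6, 55.5 and 55.1 CPM, 83.4, 71.4 and 73.3 CPM and 176, 175 and 195 CPM). Smoc2, a marker of crypt base stem cells, went the other way with 55.2, 55.1 and 51.2 CPM in M10 and 35.6, 29.02 and 32.0 CPM in M90 (log2 -0.74, edgeR adjusted p = 5.56e-09). Lgr5, the R-spondin receptor that defines crypt base stem cells, had 1.95, 1.45 and 2.60 CPM in M10 and 2.76, 3.13 and 2.87 in M90 and did not pass (95% interval -0.018 to 1.12, edgeR adjusted p = 0.115). It passed without M10 c. Olfm4 had less than 1 CPM in each of the 6 libraries, against 78.5, 78.4 and 87.4 CPM in vehicle, and its difference between M90 and M10 did not pass (edgeR adjusted p = 0.0594), though it did under 6 of the alternatives tried.

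Ribosome biogenesis, which rises with growth, gave 20 higher and 1 lower of 30 tested genes (median log2 0.36), against 21.3% and 20.0% over all genes. Npm1, the nucleolar chaperone nucleophosmin, had 204, 177 and 213 CPM in M10 and 334, 335 and 329.8 CPM in M90 (1.68-fold, log2 0.75, edgeR adjusted p = 4.81e-15). Dkc1, which pseudouridylates ribosomal RNA, had 6.28, 6.92 and 8.04 CPM in M10 and 12.0, 12.8 and 15.7 CPM in M90 (1.92-fold, log2 0.94, edgeR adjusted p = 1.51e-07). The single lower gene was Cirh1a (log2 -0.29, edgeR adjusted p = 0.0144), a call that ended under 5 alternatives. With the M10 and M90 libraries fitted alone, 14 genes of this list were higher, and with library size as the only scaling 27 were. A mixed list of 30 CDK inhibitors, D cyclins, p53 targets and related genes, which holds drivers of the cycle as well as brakes, had 4 higher and 11 lower members, or 7 and 5 with library size alone. The higher ones, named after their values were seen, were the drivers Ccnd1 and Cdk4, Trp53, which encodes p53, and the death receptor Fas. The CDK inhibitors called were Cdkn1a and Cdkn2b, both lower. Btg2, an antiproliferative p53 target, had 157, 145 and 139 CPM in M10 and 93.5, 92.8 and 87.0 CPM in M90 (1.62-fold lower, log2 -0.69, edgeR adjusted p = 1.22e-11) and Trp53inp1 was 1.85-fold lower (log2 -0.89, edgeR adjusted p = 8.98e-11). Cdkn1a, the CDK inhibitor p21, had 899, 879 and 750.3 CPM in M10 and 767, 648 and 546 CPM in M90 (log2 -0.37, edgeR adjusted p = 0.0231) and lost its call under 6 alternatives, among them leaving out M10 a, M10 b or M90 b (adjusted p up to 0.127), and its M10 and M90 ranges overlapped.

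Vitamin D receptor targets gave the largest single difference of the comparison. Cyp24a1, the mitochondrial hydroxylase that inactivates vitamin D and is the classical target of its receptor (protein-coding, chr2:170482708-170497145 on GRCm38), had 499, 468 and 512 CPM in M10 and 0.653, 0.738 and 0.299 CPM in M90, 874-fold lower in M90 (log2 -9.77, edgeR adjusted p = 3.58e-32). The exact size of this fold for Cyp24a1 rests on few counts in M90. Its vehicle libraries had 0.117, 0.171 and 0.387 CPM, so that the M90 range overlapped that of vehicle and M10 stood alone. S100g, the calcium-buffering calbindin-D9k, had 993, 1101 and 915 CPM in M10 and 317, 269 and 255 CPM in M90 (3.58-fold lower, log2 -1.84, SE 0.11, edgeR adjusted p = 3.61e-08), against 42.0, 43.4 and 36.5 CPM in vehicle. Atp2b1, the basolateral calcium pump, had 921, 891 and 858 CPM in M10 and 391, 351 and 333 CPM in M90 (2.49-fold lower, log2 -1.31, edgeR adjusted p = 4.27e-18). Slc30a10, a manganese exporter, had 161, 151 and 129.9 CPM in M10 and 62.9, 57.1 and 44.1 CPM in M90 (2.70-fold lower, log2 -1.43, edgeR adjusted p = 1.76e-08). Unlike Cyp24a1, these 3 genes stayed above all vehicle libraries in every M90 library. Cyp3a11 and Cyp3a13, detoxifying P450 enzymes that the vitamin D receptor and PXR can both induce, were 3.12-fold and 2.57-fold lower (1905, 1854 and 2227 CPM in M10 and 570.4, 648 and 699.9 CPM in M90, and 1964, 1945 and 1932 CPM in M10 and 804, 775 and 695 CPM in M90, respectively; edgeR adjusted p = 7.34e-11 and 5.70e-22). Vdr itself, the receptor, went the other way with 778, 802 and 817 CPM in M10 and 1005, 992 and 1007 CPM in M90 (1.25-fold higher, log2 0.33, SE 0.041, edgeR adjusted p = 3.65e-08). In all, 7 of 14 tested genes of the vitamin D and calcium list were lower (20.0% over all genes) and 2 higher, with a median log2 difference of -0.48. Trpm6, a magnesium channel, had 156, 152 and 145 against 158, 139 and 134 CPM and did not pass (95% interval -0.21 to 0.073), and Trpv6, the apical calcium channel, was below the filter.

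**Figure D2:**
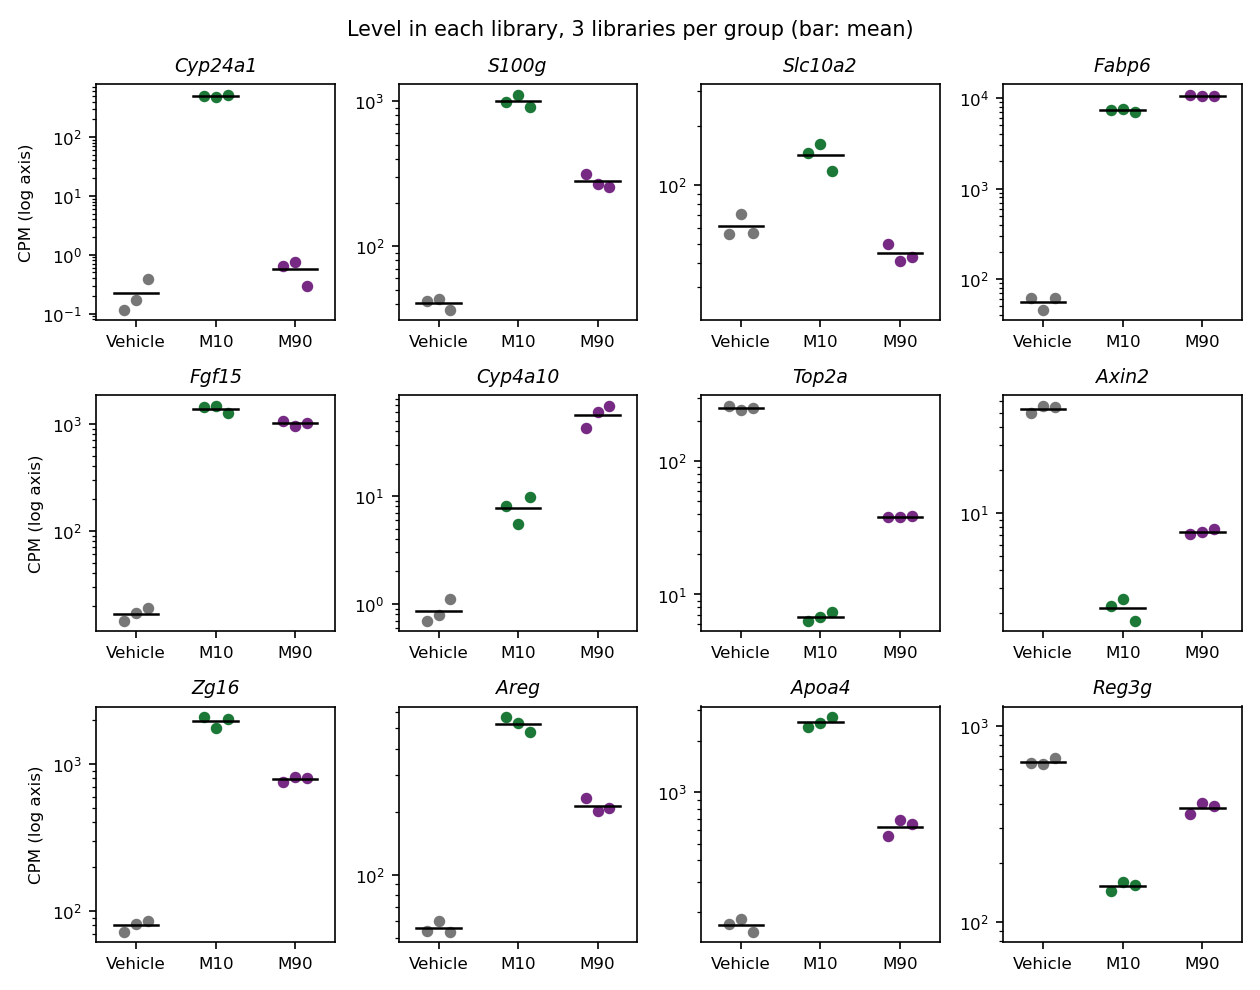
Level of 12 named genes in each vehicle, M10 and M90 library (CPM, log axis; points are libraries, bars are means of 3). Cyp24a1 is high in M10 alone, Slc10a2, S100g, Zg16, Areg and Apoa4 are lower in M90 than in M10, and Cyp4a10, Top2a, Axin2, Reg3g and Fabp6 are higher.

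Genes that handle bile acids did not move together. Slc10a2, the apical importer ASBT (chr8:5083219-5105351), had 145, 161 and 117 CPM in M10 and 50.1, 41.0 and 42.9 CPM in M90, 3.17-fold lower in M90 (log2 -1.67, SE 0.14, edgeR adjusted p = 1.66e-07), and vehicle lay between the groups with 56.2, 71.2 and 57.0 CPM. Fabp6, the cytosolic ileal bile acid binding protein (chr11:43596049-43601540), had 7348, 7632 and 6969.6 CPM in M10 and 10703, 10612 and 10457 CPM in M90, 1.45-fold higher (log2 0.53, SE 0.10, edgeR adjusted p = 0.00113). Of the basolateral exporter OSTα-OSTβ, Slc51b was 1.16-fold higher (625, 652 and 630.2 CPM in M10 and 752, 721 and 739.8 CPM in M90; log2 0.21, edgeR adjusted p = 0.000425), and Slc51a, with 1407, 1484 and 1363 CPM in M10 and 1546, 1455 and 1540.0 CPM in M90, did not pass (95% interval 0.0041 to 0.18, edgeR adjusted p = 0.0877), though it did under 5 alternatives. So the importer was lower in M90 while binding protein and 1 exporter subunit were higher. Abcc2, an apical conjugate exporter, was 1.37-fold lower (1159, 1149 and 1150.3 CPM in M10 and 823, 856 and 841 CPM in M90; log2 -0.46, edgeR adjusted p = 1.73e-10), and Slco3a1 was 2.28-fold lower (log2 -1.19, edgeR adjusted p = 2.72e-06). Of 13 tested transport and binding genes 2 were higher and 5 lower (21.3% and 20.0% over all genes).

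Readouts of FXR also held members of both directions. Fgf15, the enterokine through which ileum restrains hepatic bile acid synthesis (chr7:144896531-144900953), had 1420.4, 1455 and 1250.3 CPM in M10 and 1064, 958 and 1013 CPM in M90, 1.36-fold lower in M90 (log2 -0.44, SE 0.070, edgeR adjusted p = 4.30e-05). Nr0b2, the repressor SHP, had 12.3, 17.3 and 14.5 CPM in M10 and 23.6, 23.9 and 23.5 CPM in M90, 1.61-fold higher (log2 0.69, SE 0.22, edgeR adjusted p = 0.0131), a call that ended without M10 a (edgeR adjusted p = 0.0665). Both groups lay far above vehicle, which had 14.4, 17.0 and 18.9 CPM of Fgf15 and 0.641, 0 and 0.215 CPM of Nr0b2. Nr1h4, FXR itself, had 184, 188 and 182 CPM in M10 and 164, 158 and 173 CPM in M90 (log2 -0.16, edgeR adjusted p = 0.011) and lost its call without M90 b and with upper-quartile or library size scaling. Apoc2, an FXR-inducible activator of lipoprotein lipase, was 2.12-fold lower (141, 161 and 146 CPM in M10 and 72.7, 73.4 and 65.4 CPM in M90; log2 -1.08, edgeR adjusted p = 9.95e-14), whereas Nr5a2, the receptor LRH-1, was 1.41-fold higher (32.8, 34.3 and 31.6 CPM in M10 and 43.9, 46.4 and 48.9 CPM in M90; log2 0.50, edgeR adjusted p = 9.87e-07). Over 17 tested genes of this list 4 were higher and 4 lower, close to the 21.3% and 20.0% over all tested genes, with a median of 0.094, and with library size alone 6 and 2. Neither the perfect IR1 motif, an inverted repeat of the half-site AGGTCA with 1 base between that FXR can bind, nor the perfect DR3 motif, a direct repeat of AGGTCA with 3 bases between that the vitamin D receptor can bind, was found on either strand in the windows of 16 of the 17 FXR genes or 13 of the 14 vitamin D genes. These strings occur in the windows of 3 (0.0111%) and 2 (0.0074%) of the 27025 genes, and their absence speaks only of those letters in that stretch.

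Targets of PPARα, the receptor that drives fatty acid oxidation, gave 22 higher and 6 lower of 36, against 21.3% higher and 20.0% lower over all genes (median log2 0.21). Cyp4a10, a fatty acid ω-hydroxylase (chr4:115518264-115533649), had 8.12, 5.55 and 9.78 CPM in M10 and 42.3, 59.6 and 68.0 CPM in M90, 7.28-fold higher in M90 (log2 2.86, SE 0.21, edgeR adjusted p = 6.91e-10), against 0.699, 0.786 and 1.12 CPM in vehicle. Acaa1b, a peroxisomal thiolase, had 132, 133 and 157 CPM in M10 and 320.0, 369 and 380.3 CPM in M90 (2.54-fold, log2 1.34, edgeR adjusted p = 1.08e-13), and Acot1, an acyl-CoA thioesterase, had 59.4, 58.9 and 71.3 CPM in M10 and 111, 137 and 149.9 CPM in M90 (2.10-fold, log2 1.07, edgeR adjusted p = 2.21e-09). Fabp1, the fatty acid binding protein of proximal enterocytes and liver, had 1485, 1462 and 1738 CPM in M10 and 2542, 3297 and 3358 CPM in M90 (1.96-fold, log2 0.97, edgeR adjusted p = 9.18e-05). In these 4 genes M90 was further from vehicle than M10 (10.4, 12.3 and 12.7 CPM, 17.3, 16.5 and 19.3 CPM and 121, 149.9 and 134 CPM in vehicle for the last 3), the reverse of the proliferation and vitamin D genes. Other targets did not pass, among them Pdk4, a kinase that restrains pyruvate oxidation, with 115, 108 and 134 against 101, 114 and 132 CPM (95% interval -0.46 to 0.38). Cidec, a lipid droplet protein, was 2.53-fold lower (196, 197 and 189 CPM in M10 and 75.0, 76.3 and 78.4 CPM in M90; log2 -1.34, edgeR adjusted p = 2.47e-19).

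Genes of fat absorption and packaging were mostly lower. Of 32 tested genes 18 were lower and 5 higher in M90 (13 and 8 with library size alone), against 20.0% lower and 21.3% higher over all genes. This list shares Fabp1, Fabp2, Plin2 and Cidec with the PPARα list, and the difference between the lists was not tested. Apoa4, a chylomicron apolipoprotein, had 2409.7, 2551 and 2739.8 CPM in M10 and 554, 684 and 647 CPM in M90, 4.08-fold lower (log2 -2.03, SE 0.075, edgeR adjusted p = 4.39e-13). Acsl5, which activates long-chain fatty acids, had 1527, 1545 and 1495 CPM in M10 and 868, 855 and 818 CPM in M90 (1.80-fold lower, log2 -0.85, edgeR adjusted p = 2.95e-18). Mttp, which loads lipid onto apolipoprotein B, had 3133, 3179 and 3340.1 CPM in M10 and 2205, 2319 and 2267 CPM in M90 (1.42-fold lower, log2 -0.51, edgeR adjusted p = 4.81e-13), while Dgat1, of triglyceride synthesis, did not pass (95% interval -0.062 to 0.13). M90 was above vehicle in each library for Apoa4, Acsl5 and Mttp (169.6, 180.4 and 153 CPM, 443, 486 and 469.6 CPM and 992, 1098 and 1001 CPM). Scarb1, a receptor for lipoprotein cholesterol, was 1.60-fold higher (84.3, 93.7 and 109 CPM in M10 and 144, 168 and 147 CPM in M90; log2 0.68, edgeR adjusted p = 8.76e-08). Cholesterol synthesis genes differed by little: 13 of 25 were lower and 2 higher, but 7 and 7 with library size alone.

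Drug-metabolising and antioxidant genes contained members of both directions. Of 32 PXR and CAR genes 8 were higher and 15 lower, where 21.3% of all tested genes were higher and 20.0% lower. Ces2c, an intestinal carboxylesterase, had 804, 807 and 733 CPM in M10 and 425, 425 and 408 CPM in M90 (1.86-fold lower, log2 -0.90, edgeR adjusted p = 3.49e-18), and Ces2a was 1.54-fold lower (log2 -0.62, edgeR adjusted p = 2.22e-14). Ces1f, a carboxylesterase of another family, had 102, 102 and 111 CPM in M10 and 279.8, 330.4 and 316 CPM in M90 (2.95-fold higher, log2 1.56, edgeR adjusted p = 5.38e-17). The receptor gene Nr1i2 did not pass (183, 183 and 176 CPM in M10 and 193, 186 and 193 CPM in M90; 95% interval -0.032 to 0.18). Among 27 NRF2 targets and antioxidant enzymes 14 were higher and 3 lower. Gpx2, the gastrointestinal glutathione peroxidase, had 117, 121 and 133 CPM in M10 and 364, 387 and 414 CPM in M90 (3.14-fold higher, log2 1.65, edgeR adjusted p = 2.94e-08). Nqo1, a quinone reductase, had 37.8, 31.5 and 46.8 CPM in M10 and 67.9, 78.8 and 91.8 CPM in M90 (2.06-fold, log2 1.04, edgeR adjusted p = 2.18e-06), and Gclc, of glutathione synthesis, was 1.40-fold higher (log2 0.49, edgeR adjusted p = 6.96e-09). Slc7a11, the cystine importer, was 1.94-fold lower (29.9, 34.9 and 31.5 CPM in M10 and 15.4, 15.3 and 18.9 CPM in M90; log2 -0.96, edgeR adjusted p = 2.30e-07).

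Genes of absorptive enterocytes were mostly lower in M90. Of 43 tested enterocyte genes 33 were lower and 5 higher (median log2 -0.53, all genes 0.037), against 20.0% and 21.3% over all genes. Krt20, a keratin of the villus tip, had 2356, 2364 and 2255 CPM in M10 and 1471, 1486 and 1485 CPM in M90, 1.57-fold lower (log2 -0.65, SE 0.038, edgeR adjusted p = 1.57e-16). Ezr, the microvillus linker ezrin, had 2884, 2896 and 2659 CPM in M10 and 1538, 1422 and 1439.9 CPM in M90 (1.92-fold lower, log2 -0.94, edgeR adjusted p = 2.51e-19), and Eps8, which caps microvillus actin, had 669, 710.3 and 636 CPM in M10 and 366, 333 and 334 CPM in M90 (1.95-fold lower, log2 -0.97, edgeR adjusted p = 3.65e-15). M10 and M90 ranges were apart in these 3 genes and all pool libraries exceeded vehicle (729, 742 and 726 CPM, 886, 922 and 828 CPM and 210.0, 236 and 201 CPM). Alpi, intestinal alkaline phosphatase, differed less (719.7, 718 and 646 CPM in M10 and 584, 592 and 544 CPM in M90; log2 -0.28, edgeR adjusted p = 0.000262). Khk, which starts fructose metabolism, was 1.32-fold higher (log2 0.40, edgeR adjusted p = 1.22e-07). Nutrient transporters followed in part. Slc15a1, the peptide transporter PepT1, had 242, 245 and 232 CPM in M10 and 108, 125 and 104 CPM in M90 (2.13-fold lower, log2 -1.09, edgeR adjusted p = 6.01e-13), Slc6a19, a neutral amino acid transporter, was 2.03-fold lower (log2 -1.02, edgeR adjusted p = 2.25e-11), and 10 of 17 amino acid and peptide transporters were lower with 2 higher. Slc2a2, the basolateral glucose transporter, was 1.77-fold lower (log2 -0.82, edgeR adjusted p = 6.81e-10), in a sugar list with 6 higher and 6 lower of 20.

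Goblet cell genes were lower too, with 13 lower and 1 higher of 21 (median log2 -0.52), against 20.0% and 21.3% over all genes. Muc2, the gel-forming mucin, had 1178, 1081 and 1111 CPM in M10 and 666, 759.7 and 741 CPM in M90 (1.56-fold lower, log2 -0.64, edgeR adjusted p = 2.53e-05). Zg16, a lectin of the mucus layer, had 2076, 1761 and 2004 CPM in M10 and 751, 820.2 and 799 CPM in M90 (2.46-fold lower, log2 -1.30, edgeR adjusted p = 6.08e-17). Fcgbp, which cross-links mucus, had 3239, 2832 and 3151 CPM in M10 and 1221, 1307 and 1163 CPM in M90 (2.498-fold lower, log2 -1.32, edgeR adjusted p = 1.27e-15). All of the 6 libraries stood above vehicle for these genes (121, 136 and 149 CPM, 72.3, 81.3 and 85.6 CPM and 675, 679 and 573 CPM). Spink4, a secreted inhibitor of the same cells, did not differ by the test (215, 205 and 195 CPM in M10 and 191, 225 and 197 CPM in M90; 95% interval -0.17 to 0.16). The 1 higher gene, St6galnac1, was at 0 in M10 and at 0.352, 0.695 and 0.0428 CPM in M90, at least 2.75-fold over a floor of 3 counts per library. That bound rests on M90 b and is 1.49-fold without it, and the call ended with limma-voom and a weight per group (limma adjusted p = 0.0627).

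Other secretory lineages showed few calls. Of 22 Paneth cell genes 2 were higher and 4 lower, of 30 enteroendocrine genes 3 and 5, and of 24 tuft cell genes 0 and 1, all below the 41.2% of genes called overall. Lyz1, Paneth cell lysozyme, had 138, 128 and 123 CPM in M10 and 90.5, 115 and 94.8 CPM in M90 (log2 -0.37, edgeR adjusted p = 0.0344), a call that 8 alternatives ended. Chga and Dclk1, the usual enteroendocrine and tuft markers, did not pass (160.2, 174 and 157 against 136, 167 and 150.3 CPM, 95% interval -0.33 to 0.10, and 64.2, 57.4 and 55.2 against 55.4, 55.4 and 54.2 CPM, 95% interval -0.29 to 0.089). Gcg, the proglucagon gene, was 1.15-fold higher (1107, 1134 and 1022 CPM in M10 and 1195, 1278 and 1271 CPM in M90; log2 0.20, edgeR adjusted p = 0.00211).

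**Figure D3:**
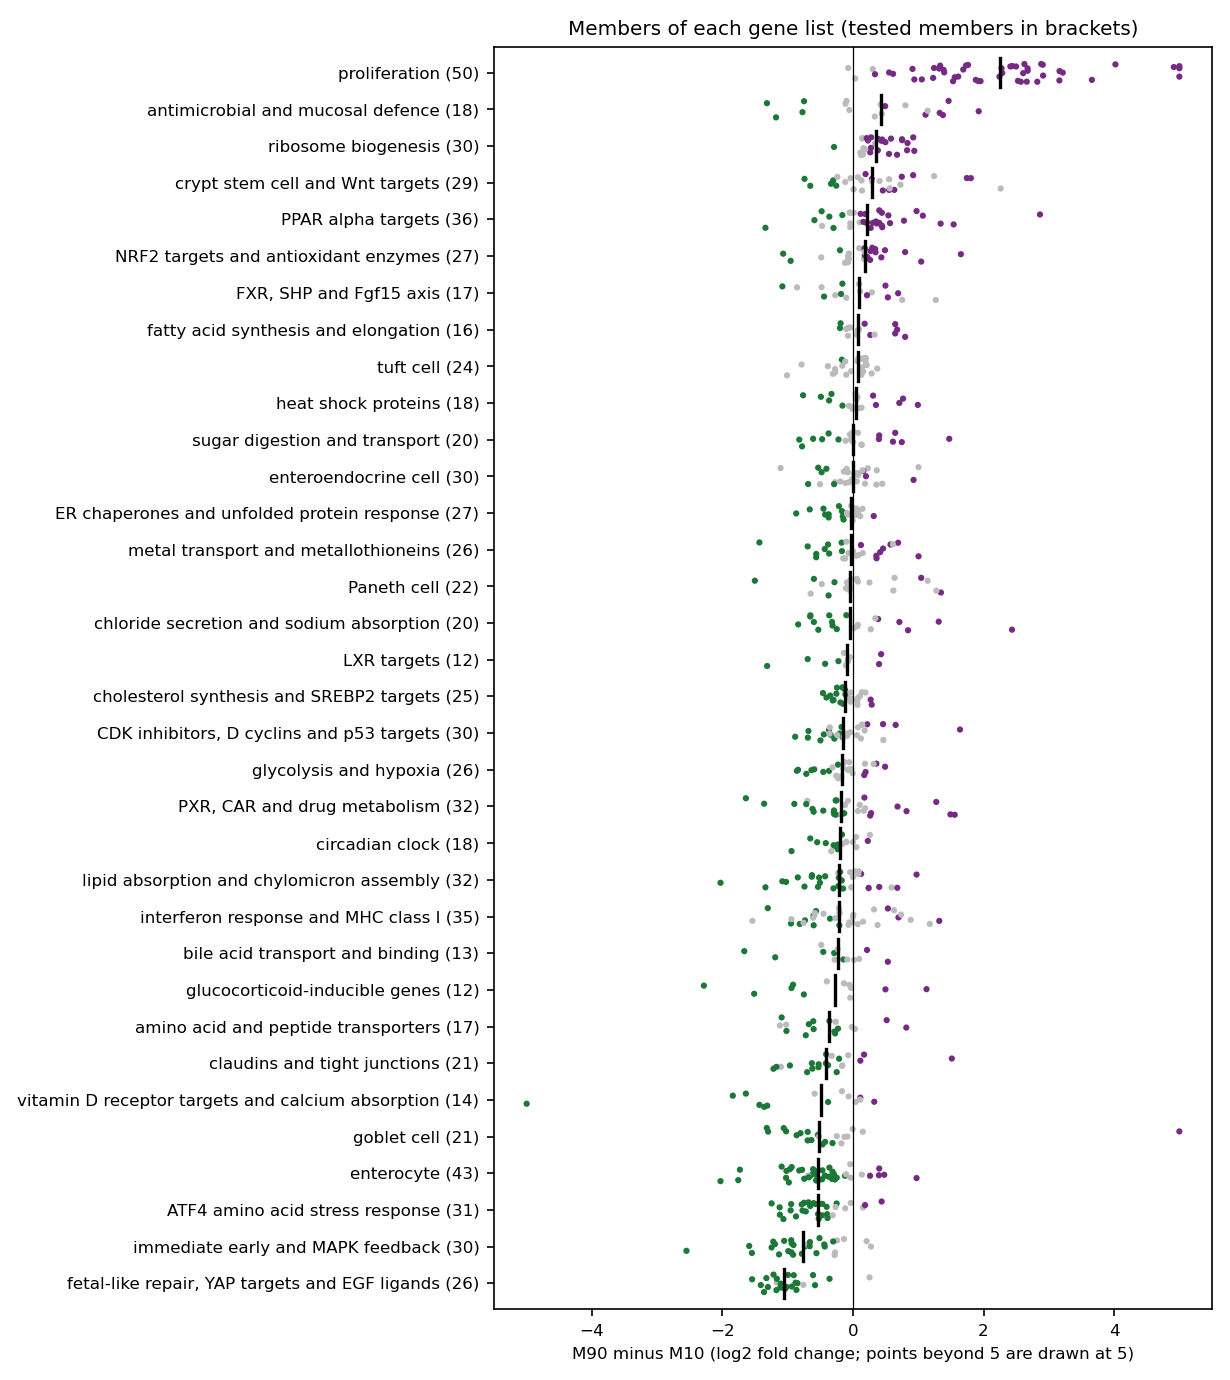
Log2 difference between M90 and M10 of each tested member of the 34 lists on epithelial cells with at least 10 tested members, ordered by their median (black bar). Purple points were called higher in M90, green lower and grey not called, and the ends of the order are the proliferation list (47 of 50 higher) and the repair and EGF ligand list (23 of 26 lower).

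Repair and growth-signal genes had the largest share of lower calls among the lists. Fetal-like repair genes, YAP targets and EGF receptor ligands gave 23 lower and 0 higher of 26, with a median log2 difference of -1.06. Over all tested genes 20.0% were lower and 21.3% higher. Areg, amphiregulin (chr5:91139599-91148432), had 566, 532 and 483 CPM in M10 and 232, 202 and 207 CPM in M90, 2.47-fold lower in M90 (log2 -1.30, SE 0.063, edgeR adjusted p = 5.18e-17), and Ereg, epiregulin, had 254, 242 and 215 CPM in M10 and 116, 106 and 111 CPM in M90 (2.14-fold lower, log2 -1.10, edgeR adjusted p = 3.36e-17). Plaur, the urokinase receptor, had 169, 173 and 154 CPM in M10 and 70.6, 66.3 and 76.4 CPM in M90 (2.33-fold lower, log2 -1.22, edgeR adjusted p = 3.68e-15). Vehicle lay below both pools for these genes, with 53.9, 60.0 and 53.4 CPM of Areg, a mean of 48.4 ± 1.40 CPM (SD, n = 3) of Ereg, and 27.96, 33.4 and 25.2 CPM of Plaur. Krt7, a keratin of simple epithelia, was 1.84-fold lower (608, 603 and 574 CPM in M10 and 342, 311 and 316 CPM in M90; log2 -0.88, edgeR adjusted p = 3.36e-17), and its M90 range overlapped that of vehicle (322, 336 and 333 CPM). The 3 members that did not pass had less than 5 CPM in every library of M10 and M90.

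Immediate early genes and MAPK feedback regulators, which follow signals such as those of EGF ligands, gave 23 lower and 0 higher of 30 (median log2 -0.76). The shares over all genes were 20.0% and 21.3%. Klf6, an early zinc finger factor, had 562, 546 and 517 CPM in M10 and 279.8, 282 and 285 CPM in M90 (1.92-fold lower, log2 -0.94, edgeR adjusted p = 1.86e-18). Egr1 had 92.4, 83.2 and 75.3 CPM in M10 and 33.2, 37.9 and 36.6 CPM in M90 (2.33-fold lower, log2 -1.22, edgeR adjusted p = 5.61e-14), and Dusp4, a phosphatase that ends ERK signalling, had 60.5, 58.9 and 45.7 CPM in M10 and 26.2, 22.5 and 23.5 CPM in M90 (2.29-fold lower, log2 -1.20, edgeR adjusted p = 2.17e-11). All M90 libraries were below vehicle for Egr1 and overlapped with it for Dusp4 (40.9, 43.2 and 41.3 CPM and 27.9, 30.2 and 25.7 CPM). Ier2 and Spry2 did not pass (95% interval -0.30 to 0.021 and 95% interval -0.50 to 0.0087).

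The amino acid stress response driven by ATF4 was lower, with 24 lower and 2 higher of 31 (median log2 -0.53), against 20.0% and 21.3% over all genes. Chac1, which degrades glutathione, had 97.2, 89.1 and 86.3 CPM in M10 and 47.8, 39.5 and 38.0 CPM in M90 (2.18-fold lower, log2 -1.12, SE 0.083, edgeR adjusted p = 8.96e-14). Asns, asparagine synthetase, had 248, 226 and 207 CPM in M10 and 152, 144 and 136 CPM in M90 (1.58-fold lower, log2 -0.66, edgeR adjusted p = 7.44e-12), and Trib3, a pseudokinase that limits the response, had 81.1, 81.4 and 67.7 CPM in M10 and 41.4, 36.2 and 32.6 CPM in M90 (2.09-fold lower, log2 -1.07, edgeR adjusted p = 2.10e-11). Gdf15, a stress hormone, was 2.174-fold lower (53.2, 49.2 and 40.5 CPM in M10 and 24.7, 22.5 and 18.7 CPM in M90; log2 -1.12, edgeR adjusted p = 4.06e-10). Every M90 library lay below every M10 library and above every vehicle library in these 4 genes. Aldh18a1, of proline synthesis, was 1.36-fold higher (log2 0.44, edgeR adjusted p = 9.87e-10). The chaperones of the endoplasmic reticulum showed no common shift: 10 of 27 were lower and 1 higher, or 5 and 10 with library size alone. Herpud1, of protein degradation there, was 1.83-fold lower (log2 -0.87, edgeR adjusted p = 5.18e-17), Hspa5 was 1.30-fold lower (log2 -0.37, edgeR adjusted p = 1.24e-09), and Calr, with 949.9, 974 and 990.2 CPM in M10 and 955, 973 and 984 CPM in M90, did not pass (95% interval -0.080 to 0.078, positive and called with library size alone). Among 18 heat shock genes 5 were higher, with Hspd1 and Hspe1, the mitochondrial chaperonins, 1.64-fold and 1.99-fold higher (edgeR adjusted p = 3.39e-14 and 2.57e-11), and 5 lower, with Hsp90aa1 1.41-fold lower (log2 -0.49, edgeR adjusted p = 4.93e-10).

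Barrier and defence genes differed by kind. Of 21 claudins and tight junction genes 13 were lower and 3 higher, where 20.0% of all tested genes were lower and 21.3% higher. Tjp1, the scaffold ZO-1, had 402, 384 and 376 CPM in M10 and 241, 237 and 236 CPM in M90 (1.63-fold lower, log2 -0.70, edgeR adjusted p = 5.61e-14), Ocln, occludin, was 1.55-fold lower (log2 -0.63, edgeR adjusted p = 1.78e-13), and Pard6b, of the polarity complex, had 284, 283 and 246 CPM in M10 and 121, 119.6 and 119 CPM in M90 (2.26-fold lower, log2 -1.17, edgeR adjusted p = 5.33e-18). Cldn8, a sealing claudin, was 2.86-fold higher (2.07, 4.23 and 6.26 CPM in M10 and 13.7, 10.8 and 10.7 CPM in M90; log2 1.51, edgeR adjusted p = 2.92e-06). Among 18 antimicrobial and mucosal defence genes 6 were higher and 4 lower. Pigr, which carries IgA across the epithelium, had 503, 518 and 537 CPM in M10 and 1113, 1124 and 1129 CPM in M90, 2.16-fold higher (log2 1.11, SE 0.038, edgeR adjusted p = 1.04e-22). Reg3g, a bactericidal lectin, had 144, 159.6 and 154 CPM in M10 and 354, 402 and 390.2 CPM in M90 (2.51-fold, log2 1.33, edgeR adjusted p = 5.70e-22), and Dmbt1, a mucosal scavenger protein, had 4.36, 5.21 and 7.08 CPM in M10 and 18.2, 22.2 and 21.7 CPM in M90 (3.80-fold, log2 1.93, edgeR adjusted p = 1.08e-13). Vehicle was the highest of the 3 groups for these genes (2279.8, 2203 and 2218 CPM, 646, 638 and 685 CPM and 222, 199 and 227 CPM). Cxcl16, a chemokine, was 2.26-fold lower (206, 209 and 183 CPM in M10 and 97.5, 85.2 and 81.7 CPM in M90; log2 -1.18, edgeR adjusted p = 2.88e-15), and Nos2 did not pass (95% interval -0.32 to 0.20).

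Ion transport, glucocorticoid-inducible and metal genes gave smaller groups. Of 20 genes of chloride secretion and sodium absorption 5 were higher and 10 lower, where 21.3% of all tested genes were higher and 20.0% lower. Kcne3, the potassium channel subunit that supports chloride secretion, had 0.651, 0.427 and 0.713 CPM in M10 and 2.86, 4.56 and 2.27 CPM in M90 (5.41-fold higher, log2 2.44, edgeR adjusted p = 5.17e-09), Kcnq1, its partner, was 1.64-fold higher (log2 0.71, edgeR adjusted p = 1.01e-08), and Cftr, the chloride channel, had 10.5, 10.3 and 12.6 CPM in M10 and 17.2, 20.9 and 21.4 CPM in M90 (1.79-fold, log2 0.84, edgeR adjusted p = 1.59e-08). Slc9a2, a sodium-proton exchanger, and Slc9a3r1, a scaffold protein, were 1.57-fold and 1.58-fold lower (edgeR adjusted p = 1.01e-08 and 1.34e-15). Of 12 glucocorticoid-inducible genes 5 were lower and 2 higher. Sgk1, a kinase that raises sodium uptake, had 82.2, 85.2 and 88.4 CPM in M10 and 28.9, 31.1 and 29.5 CPM in M90 (2.86-fold lower, log2 -1.51, edgeR adjusted p = 8.65e-14), Per1 was 1.92-fold lower (log2 -0.94, edgeR adjusted p = 4.15e-11), and the receptor gene Nr3c1 did not pass (192, 199 and 189 against 201, 188 and 180.1 CPM, 95% interval -0.14 to 0.083). Metallothioneins Mt1 and Mt2, which bind zinc and copper, were 1.38-fold and 1.49-fold higher (edgeR adjusted p = 1.63e-09 and 3.11e-13). Metal handling as a whole had 8 higher and 9 lower of 26. Heph, an iron oxidase, was 1.62-fold lower (log2 -0.69, edgeR adjusted p = 5.76e-15), and Fth1, ferritin, did not differ by the test (1850.3, 1897 and 1956 CPM in M10 and 1902, 1915 and 1892 CPM in M90; 95% interval -0.078 to 0.081).

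M10 and M90 were also set against the same 3 vehicle libraries, list by list. The median log2 difference from vehicle was 1.31 in M10 and 0.31 in M90 for the repair list. It was 1.03 and 0.32 for immediate early genes, 1.03 and 0.46 for enterocyte genes, and -1.83 and -0.89 for defence genes. PPARα targets had the same distance in both, 1.26 and 1.27, and Paneth cell genes nearly so, 1.03 and 1.10. NRF2 targets lay further from vehicle in M90, 0.066 and 0.49.

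**Figure D4:**
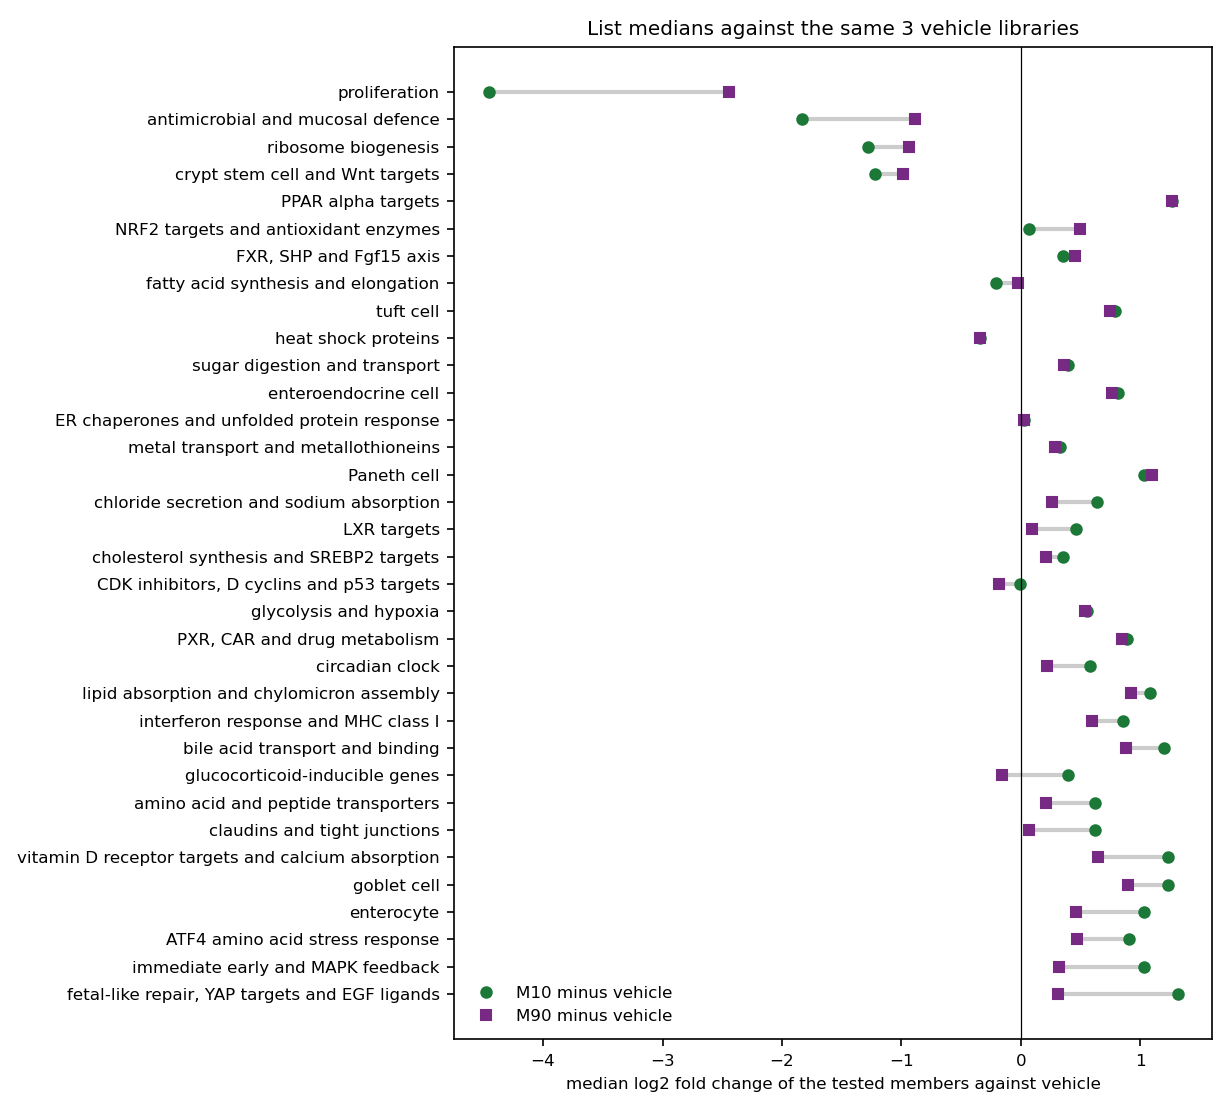
Median log2 difference from vehicle of the tested members of each list in M10 (green circles) and M90 (purple squares). Both use the same 3 vehicle libraries, which by Mup20 and Col1a1 also belong to another library set. The widest gap is that of the proliferation list (-4.45 and -2.44).

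The difference between 90% and 10% share libraries was not the same in mouse-like and human-like pools, though H90 and H10 also differ in library set. The 2 effects, M90 minus M10 and H90 minus H10, use no common library, and their difference passed the edgeR test for 1943 of 13159 genes (14.8%), 1033 (7.85%) with a higher and 910 (6.92%) with a lower value in the mouse-like pools. This count was 1493 to 2072 when single libraries of these 4 groups were left out. Among the bile acid genes Fabp6 had 6899, 7502 and 7605 CPM in H10 and 4463, 5390.3 and 5199 CPM in H90, lower at the 90% share where M90 was above M10 (difference of the 2 log2 effects 1.08, SE 0.14, edgeR adjusted p = 0.000346). Nr0b2 had 11.6, 13.2 and 10.1 CPM in H10 and 5.91, 8.02 and 5.08 CPM in H90 and also turned (difference of the 2 log2 effects 1.55, SE 0.33, edgeR adjusted p = 0.00146). Cyp4a10 had 9.86, 15.9 and 11.2 CPM in H10 and 17.0, 16.0 and 12.2 CPM in H90, and its effect was larger in the mouse-like pools (difference of the 2 log2 effects 2.56, SE 0.30, edgeR adjusted p = 3.94e-06). Fkbp5 had 7.49, 7.23 and 8.19 CPM in H10 and 16.2, 16.6 and 13.9 CPM in H90, higher in H90 and lower in M90 (difference of the 2 log2 effects -3.32, SE 0.18, edgeR adjusted p = 2.09e-16).

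Other effects pointed the same way in both kinds of pool. Cyp24a1 had 223, 186 and 189.6 CPM in H10 and 0.431, 0.759 and 0.762 CPM in H90, so it was low at the 90% share in both (difference of the 2 log2 effects -1.43, SE 0.38, edgeR adjusted p = 0.00925). The call for this difference ended without H90 b and with limma-voom. Mki67 was higher at 90% in both (log2 2.04 in the human-like and 2.88 in the mouse-like pools, difference of the 2 log2 effects 0.85, SE 0.26, edgeR adjusted p = 0.0488), and the call for the difference ended under 10 alternatives, 8 of them a library left out. Krt20, Axin2 and Slc30a10 gave no call for the difference (log2 difference 0.00035, -0.59 and 0.48, edgeR adjusted p = 0.999, 0.064 and 0.0681), though Axin2 passed under 4 alternatives and Slc30a10 under 11. Col1a1, a transcript that separates the library sets, had 0.108, 0 and 0.0392 CPM in H10 and 0, 5.58 and 8.21 CPM in H90. By this transcript all H10 libraries and H90 a lie in the set of vehicle, and H90 b and c in the set of M10 and M90. H90 minus H10 thus largely crosses the sets, while M90 minus M10 does not. Share, kind of pool and library set cannot be fully told apart in the difference of the 2 effects.

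**Figure D5:**
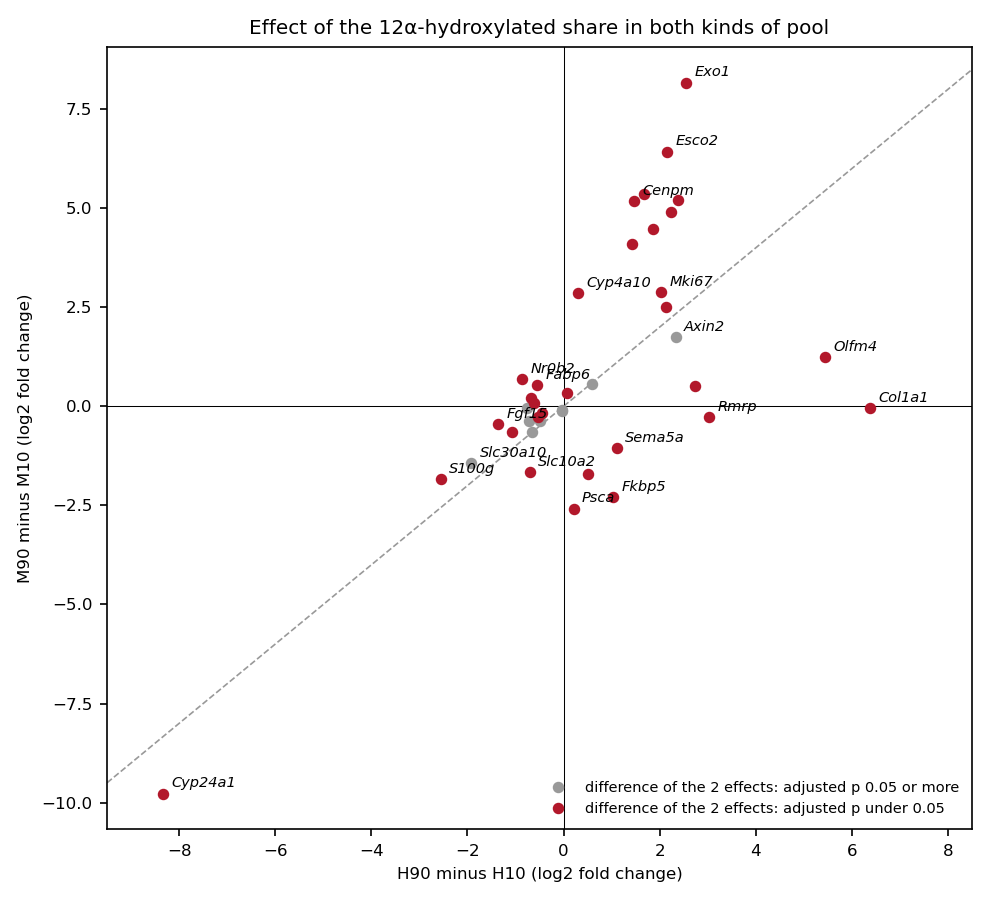
Log2 effect of the 90% against the 10% share in the mouse-like pools (vertical axis) and the human-like pools (horizontal axis) for the genes of the rule that were examined for a difference. Red genes differ between the kinds of pool by the edgeR test, grey ones did not pass, and on the dashed line both effects are equal. Fkbp5 lies at -2.28 in the mouse-like and 1.03 in the human-like pools, Cyp4a10 at 2.86 and 0.31, and Olfm4 at 1.24 and 5.44.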

How the data were processed

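RNA was measured by poly-A RNA-seq in 15 libraries, 3 in each of 5 groups, of which the 6 labelled M10 and M90 carry the comparison. The deposited values are whole-number read counts per gene symbol, 1 file per library with 23420 symbols each. According to the submitters' processing notes the authors used STAR 2.5.2b, featureCounts 1.5.0-p3 and bcl2fastq 2.17, and the genome was mm10. The annotation and the strand setting are not given in the sources used here, so overlapping and antisense genes, and families with near-identical copies such as α-defensins and Ces genes, may share or lose reads. Groups came from the titles.

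Counts were tested with edgeR 4.0.16 (R 4.3.3): filterByExpr, TMM scaling, robust quasi-likelihood fits over all 5 groups (10 residual degrees of freedom, a shared estimate of spread) and Benjamini-Hochberg adjustment over 13159 genes. The code was tested on simulated data. Levels are TMM-scaled CPM, and log2 differences are fitted values with 95% intervals from their standard errors. Each standard error is the log2 difference divided by the square root of its F statistic. It can be too small for large differences with few counts in a group. The floor for a gene at 0 was 3 counts per library. Intervals of counts cover counting error only. Fitted differences of genes with 0 to 3 counts in M10 depend on the prior count.

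Named genes were a fixed set of receptors, bile acid genes and markers, the 15 largest called differences in each direction (at least 2 CPM on average, ranges apart, predicted genes passed over), up to 6 called members of each list by smallest p with 1 of the opposite direction, the 8 largest interactions in each direction, and the 3 nulls of each list with the smallest standard error. Some genes of this rule are not reported here. The members and the 38 lists (910 genes, 833 tested) were chosen with earlier results of these data known. Coordinates are from GENCODE vM21 (GRCm38) and promoter windows from RefSeq (GRCm38.p6). Alternatives were other scalings, filters and tests (limma 3.58.1, DESeq2 1.42.0), a replicate block, M10 and M90 alone, and leaving out each library.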

Additional observations from a re-analysis of the deposited data

Results flagged for a closer look

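The log2 effect of 90% against 10% share libraries differed between mouse-like and human-like pools, by the edgeR test of the difference itself, for 1943 genes. H90 and H10 also differ in library set, which cannot be fully told apart from the share. The values that follow are the log2 effect in the mouse-like pools minus that in the human-like pools. Among the largest positive ones were genes of DNA replication, repair and mitosis, Exo1 (5.62), Esco2 (4.28), Cenpm (3.71), Rad51ap1 (3.69), Rad54l (2.81), E2f7 (2.69), Cenpi (2.67) and Troap (2.63). All 8 were also higher in H90 than in H10, and several had 0 to 3 counts over the M10 libraries, where the fitted size depends on the prior count. M10 and H90 libraries held fewer genes at exactly 1 count than M90 and H10 libraries. The part of this in the differences was not tested. Mki67 (0.85) and Top2a (0.36), which are well counted, differed by less, and leaving out any of several libraries ended either call (edgeR adjusted p up to 0.106 and 0.154).

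The largest negative differences were those of Col1a1 (-6.42), Olfm4 (-4.20), Fkbp5 (-3.32), Rmrp (-3.31), Psca (-2.79), Rpph1 (-2.24), Ly6d (-2.20) and Sema5a (-2.166). Olfm4, a stem cell marker, had 0.700, 0.260 and 0.431 CPM in H10 and 24.8, 18.6 and 16.3 CPM in H90, against 0.0766, 0.128 and 0.560 CPM in M10 and 0.502, 0.782 and 0.385 CPM in M90, so among the 4 pool groups it was well above the rest in H90, and vehicle was higher still (78.5, 78.4 and 87.4 CPM). Psca had 4.04, 3.54 and 4.67 CPM in H10 and 3.95, 4.18 and 6.52 CPM in H90, and M10 was the highest of the 4 pool groups. Rmrp had 0.485, 0.728 and 0.549 CPM in H10 and 8.58, 2.93 and 2.79 CPM in H90 and Rpph1 0.862, 1.09 and 2.90 CPM in H10 and 18.8, 6.72 and 7.79 CPM in H90. H90 a was the highest for both, and without it their differences were -2.55 and -1.61 (edgeR adjusted p = 0.0151 and 0.0175). H90 a also had 1.41% of its counts in Rn45s, the ribosomal RNA precursor, against 0.312% and 0.322% in H90 b and c. The part of this in the 2 genes was not tested. Col1a1 had 0.108, 0 and 0.0392 CPM in H10 and 0, 5.58 and 8.21 CPM in H90, with no count in H90 a. By Col1a1 all H10 libraries and H90 a lie in the library set of vehicle, and H90 b and c in that of M10 and M90. Share and library set thus cannot be fully told apart within the human-like pools. The call of Col1a1 ended under 14 alternatives.

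Bile acid and vitamin D genes that differed between the kinds of pool were Fabp6 (1.08), Fgf15 (0.92), Nr0b2 (1.55), Slc51a (0.71), Slc51b (0.89), Slc10a2 (-0.97), Nr1h4 (0.28), Vdr (0.24), Cyp24a1 (-1.43) and S100g (0.71). Fgf15 was lower at the 90% share in both, less so in the mouse-like pools (961, 998 and 958 CPM in H10 and 345, 413 and 375 CPM in H90). The PPARα target Cyp4a10 (2.56) had a larger effect in the mouse-like pools. Alpi (0.25) and Muc2 (0.44) were lower at 90% in both, and their differences lost the call under 8 and 7 alternatives, leaving out 1 library in nearly all.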

How the results depend on the processing

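Across 18 alternatives the count of genes called between M90 and M10 was 5188 to 5860, apart from leaving out a library, which gave 4545 (without M90 b) to 5217 (without M10 c), against 5428. Without a library, 2275 to 2704 genes were higher, 2270 to 2513 lower and 733 to 880 at least 2-fold. No count of all genes moved by over 1.5 times. M10 and M90 fitted alone gave 2463 higher and 2725 lower genes. Deviations of M10 and M90 libraries with the same letter were hardly correlated (0.0254, -0.000825 and 0.0496, against -0.0449 to 0.0209 for different letters). With 3 libraries per group, these values cannot show whether the letters mark a pairing. M10 and M90 alone with a replicate block, a fit chosen after seeing the data, gave 5498 calls. The replicate block over all groups gave 5491 calls, and 2031 genes for the difference between mouse-like and human-like pools. The latter count was 1868 to 2144 under the other scalings, filters and tests, and 1493 (without H10 c) to 2072 (without H90 c) without a library. None of 240 called genes followed through the settings changed sign. Of 106 not called, 46 lay on both sides of 0 over the settings, and of these Calr was called on the other side, at 0.11 with library size alone (edgeR adjusted p = 0.015). Proliferation gave 47 higher and 0 lower genes under 17 of the 18 alternatives, and 46 and 0 without M90 b. Dgat1, Nr1i2 and Scd1 passed with library size alone and with upper-quartile scaling, Fth1 with library size alone, Spry2 without M10 c, and Chga with M10 and M90 alone and a replicate block. Scaling limits small differences: with library size alone, 27 ribosome biogenesis genes were higher, in place of 20, and 10 fatty acid synthesis genes in place of 6. Counts of 0 to 3 in M10 limit the folds of Exo1, Esco2, E2f7, Rad51ap1, Rad54l and St6galnac1.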

Other observations

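Smaller lists filled in the picture between M90 and M10. Of 16 genes of fatty acid synthesis and elongation 6 were higher and 2 lower, where 21.3% of all tested genes were higher and 20.0% lower. Me1, malic enzyme, had 101, 104 and 112 CPM in M10 and 167, 185 and 198 CPM in M90 (1.74-fold higher, log2 0.80, edgeR adjusted p = 2.82e-09), and Mlxipl, the carbohydrate-responsive factor ChREBP, had 359.5, 348 and 343 CPM in M10 and 548, 557 and 540.4 CPM in M90 (1.57-fold higher, log2 0.65, edgeR adjusted p = 9.31e-14). Fads2, a fatty acid desaturase, was 1.60-fold higher (log2 0.68, edgeR adjusted p = 9.92e-10), and all of these genes had M10 and M90 ranges apart. Scd1, the main desaturase, did not pass (95% interval -0.041 to 0.16). Among 12 LXR targets Abca1, the cholesterol exporter, was 1.62-fold lower (log2 -0.69, edgeR adjusted p = 9.60e-06), as were Abcg5 (1.34-fold, log2 -0.43, edgeR adjusted p = 2.73e-09) and 2 others, while 2 were higher. Of 26 glycolysis and hypoxia genes 4 were higher and 8 lower, with Slc2a1, the glucose transporter GLUT1, 1.79-fold lower (346, 356 and 279 CPM in M10 and 213, 173 and 162 CPM in M90; log2 -0.84, edgeR adjusted p = 1.70e-05).

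Immune-related and clock genes held members of both directions. Of 35 interferon and MHC class I genes 9 were lower, a share near the 20.0% of all tested genes, and 3 were higher. H2-K1, a class I heavy chain, had 1059, 1064 and 1019 CPM in M10 and 839, 830.2 and 791 CPM in M90 (1.28-fold lower, log2 -0.35, edgeR adjusted p = 1.09e-08), whereas Irf8, an interferon regulatory factor, was 1.62-fold higher (24.0, 28.1 and 26.6 CPM in M10 and 44.5, 38.2 and 44.8 CPM in M90; log2 0.70, edgeR adjusted p = 1.32e-08). Among 7 M cell genes 3 were lower, with Ccl20, a chemokine, at 7.89, 6.06 and 9.57 CPM in M10 and 3.01, 3.95 and 2.95 CPM in M90 (log2 -1.24, edgeR adjusted p = 0.00146), and 1 was higher, Tnfrsf11a, the receptor of RANKL, at 14.2, 16.8 and 20.5 CPM in M10 and 36.0, 39.5 and 31.4 CPM in M90 (2.08-fold, log2 1.06, edgeR adjusted p = 2.53e-09). Of 18 clock genes 9 were lower and 1 higher, or 4 and 2 with library size alone. Npas2, a clock activator, was 1.57-fold lower (log2 -0.66, edgeR adjusted p = 4.37e-07), and Dbp did not pass (95% interval -0.29 to 0.079). Of 6 genes of the aryl hydrocarbon receptor 1 was higher and 1 lower, with Cyp1a1, its classical target, at 4.52, 6.32 and 9.62 CPM in M10 and 5.17, 7.17 and 5.99 CPM in M90 (95% interval -0.73 to 0.43). Of 29 tested liver genes, which include Fabp1 and Cps1 of the small intestine, 2 were higher, 1 lower and 26 not called. Their summed level was 1907 to 2266 CPM in M10 and 3055 to 3946 CPM in M90, and most of it was Fabp1. Alb, albumin, had 32.5 to 41.8 CPM in M10 and 33.7 to 51.4 CPM in M90 on plain library totals.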
